A study of Homo sapiens with 6 samples.

Results

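The sodium-potassium ATPase, or sodium pump, is examined here through the genes for its beta subunits, ATP1B1, ATP1B2 and ATP1B3. These 3 genes of the 58302 in the deposited tables were chosen by a rule that used measured values: ATP1B1 had a lower level after PRPF19 knockdown in these samples, and the other beta subunit genes were taken to be set beside it within same-numbered samples. The difference between siPrp19 and siNC is therefore a description for these genes and carries no test. The cells were SK-N-BE (2), a human neuroblastoma line grown in MEM/F12 with serum, transfected with small interfering RNA for 72 h per the labels, while the study's methods give a shorter time. Control cells received the negative control siRNA (siNC, 3 samples) and knockdown cells an siRNA against Prp19 (siPrp19, 3 samples), the splicing factor encoded by PRPF19. All samples came from 1 line with no rescue, and the study's methods call the replicates biological. Neither they nor the labels say whether same-group samples were separate cultures, so p-values measure the spread between these samples, which may be technical.

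The sodium pump exports sodium and imports potassium at the cost of ATP, and in neurons and neuroendocrine cells it restores the ion gradients that electrical activity and secondary transporters run down. It is built from a catalytic alpha subunit and a glycosylated beta subunit with a single membrane span, which the alpha subunit needs to fold, leave the endoplasmic reticulum and reach the plasma membrane. ATP1B1 encodes the most widely expressed beta subunit, which also joins neighbouring epithelial cells through its outer domain. ATP1B2, also known as the adhesion molecule on glia (AMOG), is known from glia and some neurons, and ATP1B3 is expressed in many tissues.

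The members are related but clearly distinct genes. In GENCODE release 29 (GRCh38), ATP1B1 (ENSG00000143153) lies on the plus strand at chr1:169105697-169132722, ATP1B2 (ENSG00000129244) on the plus strand at chr17:7646627-7657768, and ATP1B3 (ENSG00000069849) on the plus strand at chr3:141876124-141926514. Their longest coding sequences encode 303, 290 and 279 residues in that order, and 30.7% of the 264 residues aligned in all members are identical. ATP1B2 and ATP1B3 are the closest pair at 50.2% identity, ATP1B1 and ATP1B2 share 43.2%, and ATP1B1 and ATP1B3 share 38.1%. The encoded proteins hold 3, 9 and 3 sequons for N-linked glycosylation (N, any residue but P, then S or T), and 5 cysteines stand at the same aligned position in every member. The stretch of 20 codons with the most identical residues is shown because it is where the 3 proteins are most alike. Capitals mark the 36 of 60 bases that are identical in all members, and 13 of the 20 residues are the same. It spans an intron in each gene, from codon 24 to 43 of ATP1B1 (chr1:169106899-169111401), codon 29 to 48 of ATP1B2 (chr17:7651603-7653405) and codon 28 to 47 of ATP1B3 (chr3:141876883-141903651).
ATP1B1: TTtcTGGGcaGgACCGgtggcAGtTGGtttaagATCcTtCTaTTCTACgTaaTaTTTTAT
ATP1B2: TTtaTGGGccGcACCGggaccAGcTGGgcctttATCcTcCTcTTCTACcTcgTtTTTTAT
ATP1B3: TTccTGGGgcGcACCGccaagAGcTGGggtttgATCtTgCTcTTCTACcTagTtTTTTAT

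The start regions of the members differ as well. In the RefSeq windows (GRCh38.p14, 250 bases before to 50 after the annotated start), which were found for all 3 members, the GC content was 77.0% for ATP1B1 and 75.0% for ATP1B3, against a median of 58.7% over 35116 promoters. The ATP1B2 window had 49.0% GC. It surrounds the upstream start of that gene and not the start of the transcript with the longest coding sequence. For ATP1B1 the transcript with the longest coding sequence starts at chr1:169106323, before the window (chr1:169106440-169106739). Only the ATP1B3 window holds the start of such a transcript. CG dinucleotides numbered 41 in ATP1B1, 45 in ATP1B3 and 9 in ATP1B2, with a median of 14 over all windows. The GC box GGGCGG, the core bound by SP1 and its relatives, was searched on both strands and was present in 45.0% of all windows. ATP1B1 held 2 matches, ATP1B3 held 4 and ATP1B2 held 0. The closest pair of GC boxes in each gene is shown in capitals, on the plus strand, from base -90 to -61 of ATP1B1 (chr1:169106600-169106629) and from base -171 to -142 of ATP1B3 (chr3:141876472-141876501). In ATP1B1 they read as the reverse complement, CCGCCC, and stand next to each other without a gap.
ATP1B1: tccctccctCCGCCCCCGCCCcgccgccgc
ATP1B3: tactgcgGGGCGGggccgGGGCGGggtggg
TGACG, the core of the cAMP response element, was present in 24.6% of windows and was found 1 time each in ATP1B2 and ATP1B3. TGTTCT, the core of the glucocorticoid response element, was present in 14.8% and found 1 time in ATP1B3, and the E-box CACCTG, present in 20.6%, was found in none of the members.

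The targeted gene and the line were checked first. PRPF19 stood at 53.1, 53.1 and 64.9 FPKM in siNC replicates 1 to 3 and at 21.8, 28.5 and 33.6 FPKM with siPrp19. FPKM is the number of fragments on a gene divided by its exon length and scaled for the size of the library. The groups did not overlap, and the siPrp19 mean was 49.0% of the siNC mean (two-sided exact permutation test, p = 0.1, the smallest that 3 against 3 samples allow). Recovered reads on genes numbered 17229950 to 22009236 per sample. The sympathetic markers PHOX2A, HAND2, GATA3, ISL1, DBH, TH, CHGA and CHGB all averaged 1 FPKM or more. PHOX2A, for example, ranged from 284.4 to 441.8 FPKM with siNC and from 333.9 to 458.1 FPKM with siPrp19, and TH, the rate-limiting enzyme of catecholamine synthesis, from 148.1 to 242.4 and from 142.6 to 240.2 FPKM. Of the markers of other cells, those of glia summed to 1.96 to 3.41 and 2.79 to 3.36 FPKM (2 of 6 at a mean of 1 FPKM or more), with SOX10 listed at 0. Fibroblast markers summed to 120.0 to 140.9 and 110.5 to 136.4 FPKM (4 of 5), although COL1A2 did not exceed 0.045 FPKM in any sample. Blood cell markers summed to 2.30 to 15.7 and 0.258 to 3.27 FPKM (1 of 5, HBB), with CD3E listed at 0, and epithelial markers to 1.71 to 2.07 and 2.17 to 3.02 FPKM (1 of 4, EPCAM). The part of these cell type markers in the levels of the beta subunit genes was not tested. Both replicate 3 samples stood apart from the rest on the first principal component, which held 49.9% of the variance, at 0.54 and 0.55 against -0.45 to -0.09.

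ATP1B1 was the most highly expressed beta subunit gene in every sample. Its level was 64.6, 94.5 and 81.2 FPKM in siNC replicates 1 to 3 and 39.2, 71.4 and 55.4 FPKM in siPrp19 replicates 1 to 3, resting on 2638 to 4929 reads per sample. The groups overlapped, because siPrp19 replicate 2 lay above siNC replicate 1. Within each number, however, the siPrp19 sample was the lower one. The group means were 80.1 ± 15.0 FPKM with siNC and 55.3 ± 16.1 FPKM with siPrp19 (SD, n = 3 each), so that the siPrp19 mean was 69.1% of the siNC mean. On the log2(FPKM + 0.1) scale the difference was -0.56 with a standard error of 0.25 when samples were treated as unpaired. Blocking on the replicate number gave a standard error of 0.07. The same-numbered samples gave 60.7%, 75.6% and 68.2% of siNC. Replicate 1 was the lowest sample and replicate 2 the highest in both groups, and the sample with the lowest siNC level also had the lowest siPrp19 level. A lower level in all cells and a lower level in some of them cannot be told apart in bulk RNA.

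ATP1B3 differed less between the groups than between the replicate numbers. It measured 32.0, 27.8 and 48.6 FPKM with siNC and 27.7, 26.3 and 44.6 FPKM with siPrp19, on 1265 to 2862 reads per sample. Replicate 3 was the highest in both groups, at a mean of 46.6 FPKM against 28.4 FPKM over replicates 1 and 2, and the groups overlapped. The means were 36.1 ± 11.01 and 32.9 ± 10.2 FPKM (SD, n = 3 each), with siPrp19 at 91.0% of siNC. The log2 difference was -0.14, with a standard error of 0.28 without and 0.05 with the replicate block. The siPrp19 sample was the lower one in 3 of 3 pairs, by -0.21, -0.08 and -0.12 on the log2 scale. Without siNC replicate 3 the unpaired difference was 0.10, and without siPrp19 replicate 3 it was -0.38, since either fit leaves 1 of the high samples in 1 group only.

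ATP1B2 was expressed at a low level. Its level was 0.616, 0.815 and 0.370 FPKM with siNC and 0.779, 0.617 and 0.714 FPKM with siPrp19, resting on 24 to 58 reads per sample. The means were 0.600 ± 0.223 and 0.703 ± 0.0818 FPKM (SD, n = 3 each). It was the only member with a mean under 1 FPKM and was left out of the tests across genes for that reason. The same-numbered samples differed in both directions, by 0.30, -0.35 and 0.79 on the log2 scale, and the groups overlapped. At this depth no difference between the groups was detectable for ATP1B2.

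**Figure D1:**
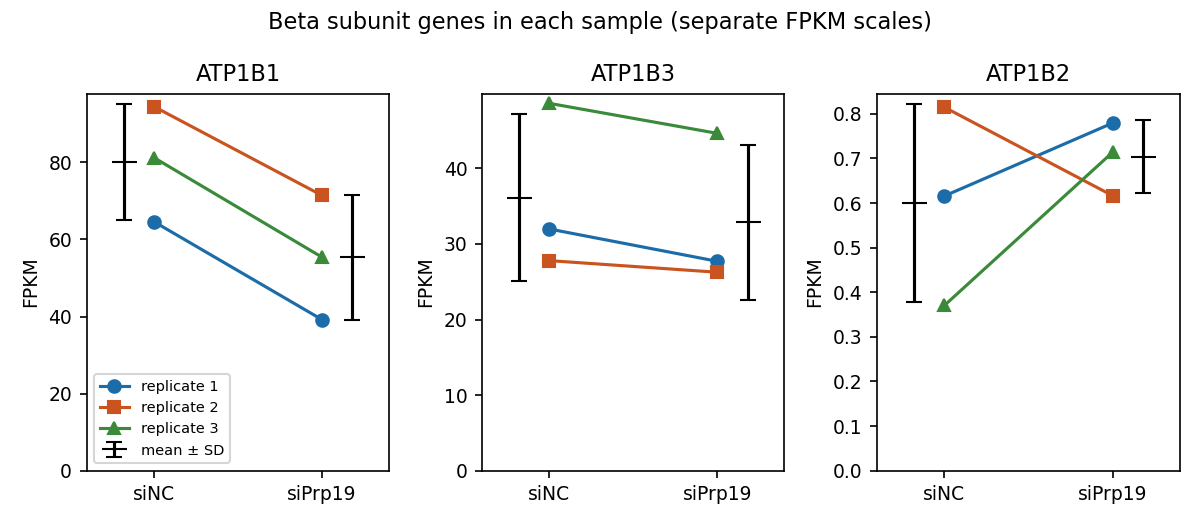
FPKM of ATP1B1, ATP1B3 and ATP1B2 in each of the 6 samples, with a separate vertical scale from 0 for each gene. Lines join the siNC and siPrp19 samples of the same replicate number, and black bars give the mean and SD of 3 samples. ATP1B1 is lower with siPrp19 along each line, from 64.6 to 39.2, 94.5 to 71.4 and 81.2 to 55.4 FPKM, while the ATP1B2 lines cross.

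Read against all genes, a lower value in each of the pairs is common in these samples. Of the 14462 genes that averaged 1 FPKM or more, 21.3% were lower with siPrp19 in 3 of 3 pairs, and ATP1B1 and ATP1B3 were among them. Groups that did not overlap were found for 2.84% of genes in the lower direction and for 2.77% in the higher direction, and no member was among these. In the limma test (FDR under 0.05) 0.0% of genes passed, 0 of 14462, with 225 at an unadjusted p under 0.05. With the replicate block it was again 0.0%, with 2265 at an unadjusted p under 0.05. In both fits PRPF19, the targeted gene, was among those not passing, at a log2 difference of -1.04 (SE 0.19 without the block). Missing this threshold therefore does not show an unchanged level. When whole reads were recovered from the FPKM values and fitted with limma's voom and the replicate block, 4.64% of 13605 genes passed in the lower direction (631 genes) and 2.93% in the higher direction (398 genes), and 0 passed without the block. ATP1B1 was 1 of the 631, and ATP1B3 was not among the genes passing. Since the same contrast chose ATP1B1, nothing follows from its place there.

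The order of the levels was the same in every sample, a comparison that the choice of the members did not use. ATP1B1 stood above ATP1B3, and ATP1B3 above ATP1B2, in 6 of 6 samples. On the log2(FPKM + 0.1) scale the level of ATP1B3 minus that of ATP1B1 was -0.96 ± 0.56 (SD, n = 6; range -1.76 to -0.31), a mean 1.95-fold excess of ATP1B1. ATP1B1 exceeded ATP1B2 by 6.47 ± 0.65, or 88.9-fold, and ATP1B3 exceeded ATP1B2 by 5.51 ± 0.66, or 45.7-fold. Both depend on the pseudocount, since ATP1B2 is low: with a pseudocount of 1 the log2 differences were 5.33 and 4.39. Each of these 3 level differences had p = 0.031 in a two-sided exact sign-flip permutation test over the 6 samples, also after Benjamini-Hochberg adjustment over the 3 pairs of genes, which is the smallest value 6 samples can give. Same-numbered samples varied together, so the 6 samples may not be fully independent. Among the 14462 genes tested, ATP1B1 ranked 496th by mean FPKM and ATP1B3 1135th.

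The makeup of the summed beta subunit level followed from these values and is given as a description. The 3 genes summed to 97.2, 123.1 and 130.2 FPKM in siNC replicates 1 to 3 and to 67.7, 98.3 and 100.8 FPKM with siPrp19. The siPrp19 sum was 69.6%, 79.9% and 77.4% of the siNC sum in the same-numbered samples. ATP1B1 made up 66.5%, 76.8% and 62.4% of the sum with siNC and 57.9%, 72.7% and 55.0% with siPrp19. ATP1B1 was more than ATP1B3 by 2.02, 3.40 and 1.67 times with siNC and by 1.41, 2.72 and 1.24 times with siPrp19. The ratio was lower with siPrp19 within every number, but its spread across numbers was larger, and the groups overlapped. ATP1B2 contributed 0.284% to 1.15% of the sum.

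**Figure D2:**
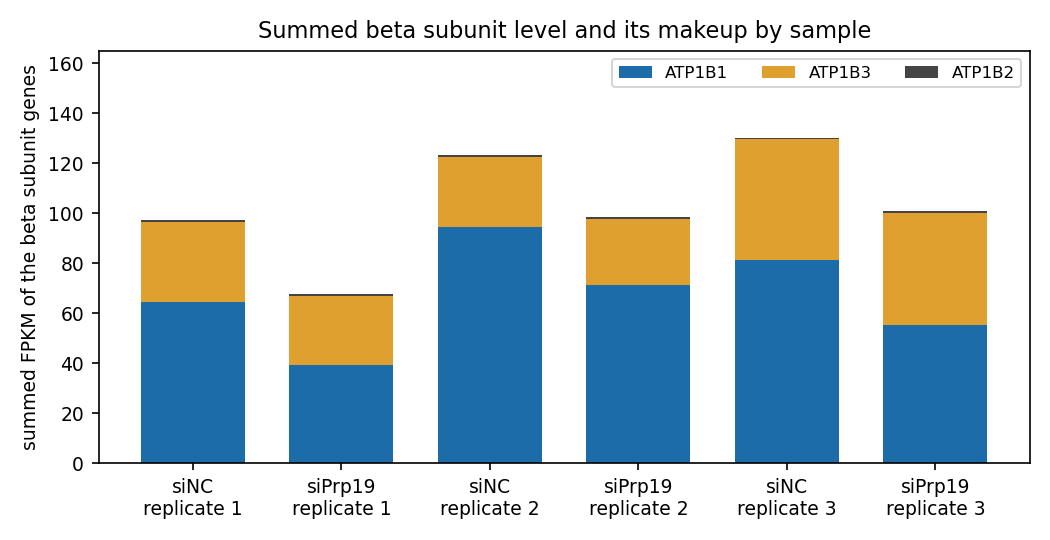
Summed FPKM of ATP1B1, ATP1B3 and ATP1B2 in each of the 6 samples, with same-numbered samples side by side and bars starting at 0. Each siPrp19 bar is shorter than the siNC bar beside it, 67.7 against 97.2, 98.3 against 123.1 and 100.8 against 130.2 FPKM, mainly in the ATP1B1 segment.

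The replicate numbers ranked ATP1B1 and ATP1B3 differently. After subtracting its group mean of log2(FPKM + 0.1), ATP1B1 deviated by -0.29, 0.26 and 0.04 in siNC replicates 1 to 3 and by -0.45, 0.41 and 0.04 with siPrp19. ATP1B3 deviated by -0.13, -0.34 and 0.47 with siNC and by -0.20, -0.28 and 0.48 with siPrp19. Replicate 2 was thus the highest for ATP1B1 and the lowest for ATP1B3 in both groups. Over these deviations Pearson's r was -0.05 between ATP1B1 and ATP1B3, -0.112 between ATP1B1 and ATP1B2, and -0.621 between ATP1B3 and ATP1B2 (6 samples). Over the levels without centring, which include the difference between the groups, it was 0.099, -0.339 and -0.638. These values describe 6 libraries that share replicate numbers.

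The genes whose levels followed each member most closely differed as well. They were taken by Pearson's r of log2(FPKM + 0.1) over the 6 samples, among genes averaging 5 FPKM or more. Since the groups are part of these 6 values, likeness to ATP1B1 includes being lower with siPrp19. For ATP1B1 they were ZFP91 (r = 0.9965), a zinc finger ubiquitin ligase, FHL1 (0.9922), a LIM domain protein, SERP1 (0.9918), which takes part in protein translocation at the endoplasmic reticulum, PTPN12 (0.9911), a tyrosine phosphatase, and CEMIP (0.9893), which takes part in hyaluronan breakdown. CEMIP measured 9.75, 17.9 and 13.2 FPKM with siNC and 4.94, 11.3 and 9.13 FPKM with siPrp19. It had a wider range than ATP1B1 and the same order of replicates. ZFP91 moved less, at 12.6, 15.7 and 14.3 FPKM with siNC and 9.86, 13.2 and 11.4 FPKM with siPrp19. Of 7905 genes, 53 had r over 0.95 with ATP1B1.

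For ATP1B3 the closest genes were MAT2A (r = 0.9991), which makes S-adenosylmethionine, RRP7A (0.9990) and RRP12 (0.9981), which act in ribosome maturation, CLSPN (0.9983), a replication checkpoint protein, and H2AFZ (0.9983), a histone variant. All were highest in both replicate 3 samples. CLSPN, for example, measured 4.04, 2.85 and 10.0 FPKM with siNC and 3.11, 2.54 and 8.07 FPKM with siPrp19. ATP1B3 had r over 0.95 with 441 of 7905 genes. For ATP1B2 the closest were MIR186 (r = 0.9689), a microRNA gene on 7 to 23 reads, PLEC (0.9646), a cytoskeletal linker, WASH8P (0.9516), DUSP2 (0.9474), a phosphatase of MAP kinases, and RNF208 (0.9464). Only 3 of 7906 genes had r over 0.95 with ATP1B2, whose own values rest on few reads.

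**Figure D3:**
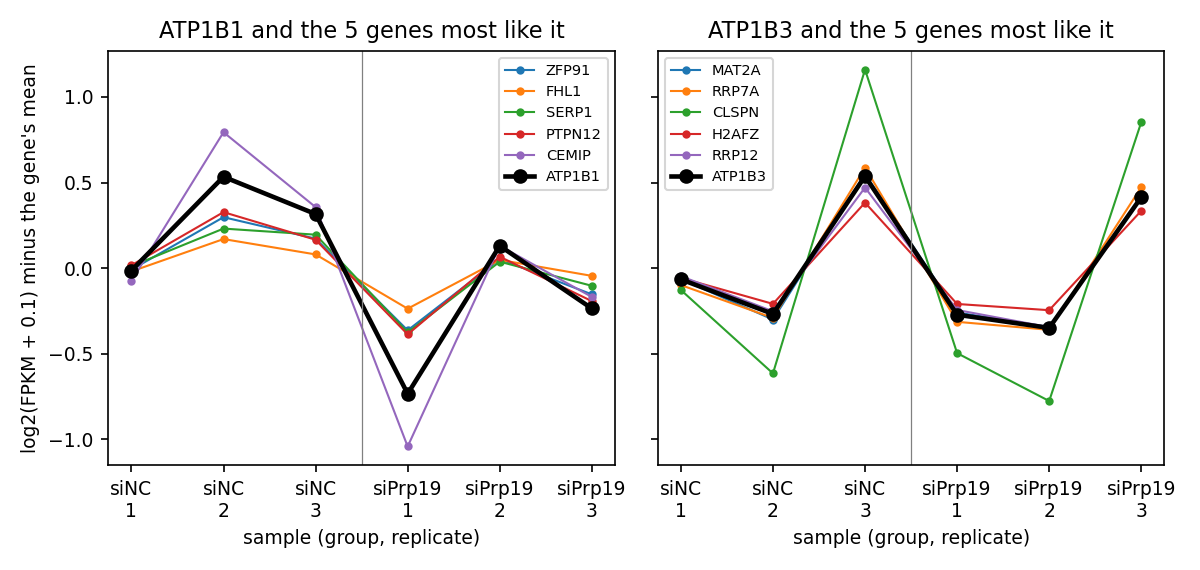
Level of ATP1B1 (left, black) and ATP1B3 (right, black) in the 6 samples with the 5 genes most like each, as log2(FPKM + 0.1) minus each gene's mean over the samples. The ATP1B1 set peaks in replicate 2 of each group and is lowest in siPrp19 replicate 1, and the ATP1B3 set is highest in replicate 3 of both groups.

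Genes annotated over the members or copied from them could share reads with them. The kit is not one that marks strand as named in the labels, and the strand setting of the counting was not given in the sources used here. NME7, a nucleoside diphosphate kinase family member on the minus strand, shares 192 exon bases with the end of ATP1B1 (chr1:169132531-169132722). It measured 5.33, 4.83 and 4.62 FPKM with siNC and 5.52, 5.16 and 4.03 FPKM with siPrp19, and its log2 difference was -0.02. The groups overlapped, and its level was far under that of ATP1B1 in all samples. ATP1B3-AS1, an antisense RNA on the minus strand within ATP1B3 (chr3:141918252-141919021), shares no exon bases with it. Its level was 4.15, 3.93 and 4.98 FPKM with siNC and 5.03, 7.80 and 5.04 FPKM with siPrp19, on 26 to 61 reads. The groups did not overlap, but siNC replicate 3 and siPrp19 replicate 1 were within 0.06 FPKM of each other (two-sided exact permutation test, p = 0.1, the smallest possible). Groups without overlap in the higher direction were found for 2.77% of all genes tested. Without strand, reads from ATP1B3-AS1 and from retained ATP1B3 sequence cannot be told apart. RNU6-509P, in ATP1B3, had 0 to 2 reads per sample. The pseudogene ATP1B1P1 on chromosome 4 had 3 to 9 reads, and ATP1B3P1 was at 0 in all samples.

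Other genes were taken in 8 lists with 89 genes, of which 41 averaged 1 FPKM or more. The lists cover sodium transport and its regulators, related calcium and proton pumps, membrane partners of the beta subunits, and transcription factors. None of the 41 passed an FDR of 0.05 in limma without or with the replicate block, and in voom with the block 2 of 38 were lower and 4 of 38 were higher, beside 4.64% and 2.93% of all genes. Those higher include SCN2A, which averaged 1 FPKM or more only through the siPrp19 samples. In 3 of 3 pairs, 9 of the 41 were lower and 11 (with SCN2A) were higher, beside 21.3% and 19.2% of all genes tested. The median log2 difference of the 41 was 0.01, and that of all genes tested was -0.004. Adjusted p-values below, and the differences and standard errors printed with them, are from voom with the replicate block. It was the only fit in which any gene passed. The adjusted p-values of limma with the block, which also uses the pairing, were higher. They ranged from 0.19 for SCN3B to 0.64 for SLC12A3 among the list genes passing in voom.

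The small regulators and membrane partners were mostly at low levels. Of the 7 FXYD genes, whose products bind the pump and tune its ion affinity, FXYD6 was the only one tested, at 19.3 FPKM with siNC and 18.1 FPKM with siPrp19 (log2 difference -0.10), and FXYD5 followed at 0.523 and 0.631 FPKM. Of the 10 genes for NKAIN proteins and other partners, 4 were tested. BSG, basigin, a chaperone of monocarboxylate transporters, was the highest at 196.1 and 210.4 FPKM. PRNP, the prion protein, measured 26.3, 34.4 and 34.1 FPKM with siNC and 17.7, 26.8 and 28.8 FPKM with siPrp19, and fell by 0.38 on the log2 scale (SE 0.06, adjusted p = 0.000194). It was lower in 3 of 3 pairs, although the groups overlapped. AGRN, agrin, a proteoglycan of neuromuscular synapses, measured 2.86, 2.74 and 2.54 FPKM with siNC and 3.53, 2.96 and 4.02 FPKM with siPrp19, and rose by 0.37 (SE 0.09, adjusted p = 0.00567). Its groups did not overlap. Among the 41 genes this held in the higher direction for AGRN and SLC9A5, a sodium-hydrogen exchanger named after its values were seen, and in the lower direction for none, beside 2.77% and 2.84% of all genes tested.

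The related pumps did not stand out. The 4 genes for the remaining beta-like subunit and the proton-potassium pumps were all under 1 FPKM: ATP4A, the catalytic subunit of the gastric pump, was at 0.141 and 0.169 FPKM, ATP4B, its beta subunit, at 0.126 and 0.0308 FPKM on 0 to 5 reads, ATP1B4 had 0 to 2 reads, and ATP12A was listed at 0. Of 9 calcium pump genes, 6 were tested and 0 passed. ATP2C1, the Golgi calcium pump, measured 25.8 and 24.5 FPKM in the group means, and ATP2A2, that of the endoplasmic reticulum, measured 23.8 and 22.6 FPKM. The lower-level pumps ATP2A3 and ATP2B3 differed by 0.22 and -0.11 on the log2 scale, with unpaired limma standard errors of 0.32 and 0.51. In voom with the replicate block the differences were 0.23 (SE 0.15) and -0.07 (SE 0.12).

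Of the 6 sodium channel genes tested, 1 was lower and 2, SCN2A among them, were higher with siPrp19 in 3 of 3 pairs. Of the 13 exchangers and cotransporters tested, 3 were lower and 3 were higher. Among all genes tested these shares were 21.3% and 19.2%. Of 18 sodium channel genes 6 were tested, 5 of them also in voom, and 2 passed in the higher direction, SCN3B and SCN2A. SCN3B, an accessory beta subunit of voltage-gated sodium channels, measured 6.95, 5.62 and 9.58 FPKM with siNC and 10.3, 7.87 and 12.7 FPKM with siPrp19 (log2 difference in voom 0.49, SE 0.06, adjusted p = 3.74e-06). SCN2A, a pore-forming subunit, measured 0.776, 0.647 and 1.12 FPKM with siNC and 1.28, 0.978 and 1.37 FPKM with siPrp19 (0.52, SE 0.09, adjusted p = 0.000468). Both were higher in 3 of 3 pairs with overlapping groups. SCN2A averaged 0.846 FPKM with siNC and 1.21 FPKM with siPrp19, so it reached the filter of 1 FPKM only through siPrp19. Its p-value is therefore given as a description and not as support for a rise. SCN9A, the other of the 2 most highly expressed channel genes, measured 7.41 and 7.16 FPKM in the group means. Of 26 exchangers and cotransporters 13 were tested, 12 in voom, and 1 passed in each direction. SLC24A1, a potassium-dependent sodium-calcium exchanger, rose by 0.37 (SE 0.11, adjusted p = 0.0343), from 1.15, 1.09 and 1.54 to 1.57, 1.31 and 1.96 FPKM. SLC12A3, the thiazide-sensitive sodium-chloride cotransporter, measured 2.65, 3.36 and 0.155 FPKM with siNC and 1.54, 2.09 and 0.241 FPKM with siPrp19. Its fitted difference in voom was -0.65 (SE 0.14, adjusted p = 0.00215), but it was lower in 2 of 3 pairs, and both replicate 3 samples had 19 and 37 reads. SLC4A8, a sodium-driven chloride-bicarbonate exchanger, was at 5.67 and 5.15 FPKM.

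**Figure D4:**
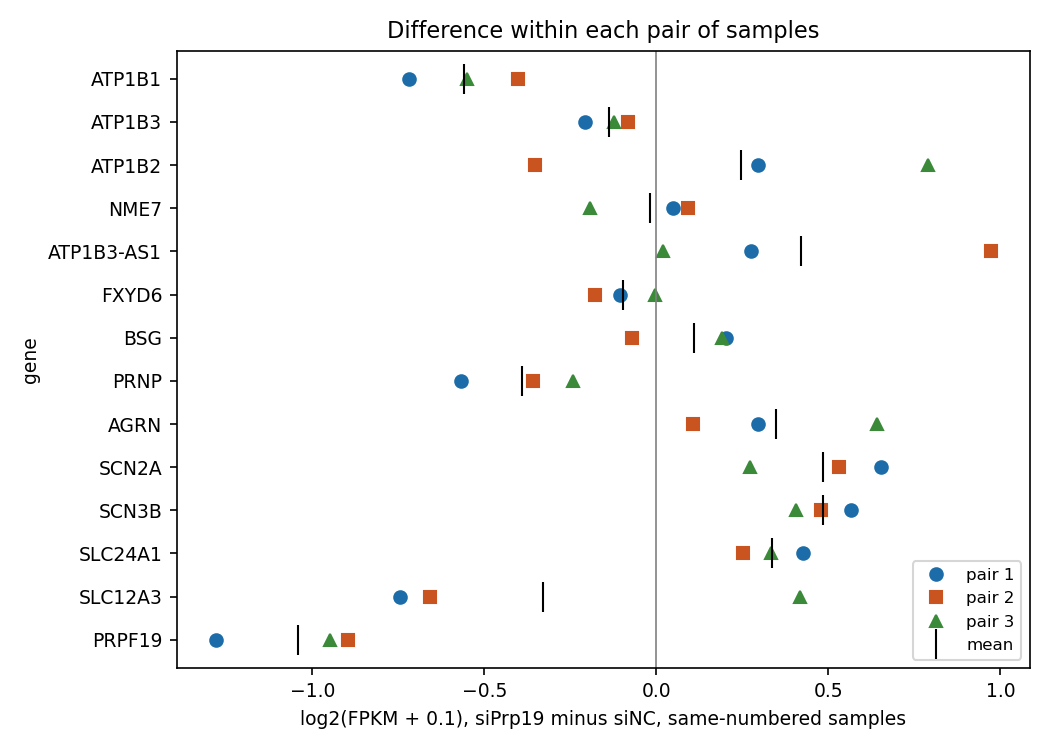
Difference of siPrp19 minus siNC in log2(FPKM + 0.1) within each of the 3 same-numbered pairs, for the beta subunit genes, genes that overlap them, selected genes of the lists and PRPF19. Points are pairs and the black bar is their mean. ATP1B1 lies between -0.72 and -0.40, ATP1B3 between -0.21 and -0.08, and ATP1B2 between -0.35 and 0.79.

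Of 7 kinase and ubiquitin ligase genes that act on sodium transport 5 were tested and 0 passed. SIK1, named after its values were seen, averaged under 1 FPKM and was not tested, and was higher in every siPrp19 sample than in any siNC sample. The same held for 2.82% of all genes above 0 in some sample that averaged under 1 FPKM. WNK1 and OXSR1, kinases of the chloride cotransporter pathway, measured 16.3 and 16.8 FPKM, and 13.5 and 13.0 FPKM, in siNC and siPrp19. STK39, the kinase related to OXSR1, was at 11.3 and 13.0 FPKM and higher in 3 of 3 pairs (adjusted p = 0.0728), and NEDD4L, the ubiquitin ligase of the epithelial sodium channel, at 2.48 and 2.65 FPKM. Of 8 transcription factor genes linked to ATP1B1 expression 6 were tested and 0 passed. THRA, a thyroid hormone receptor, measured 29.2 and 31.3 FPKM, SP1, which binds the GC box, 19.2 and 19.4 FPKM, and CREB1, which binds cAMP response sites, 9.27 and 8.63 FPKM. A p that misses the threshold does not show that these levels were equal.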

How the data were processed

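The RNA-seq set held 3 siNC and 3 siPrp19 samples of SK-N-BE (2) cells, grouped by the labels. The authors deposited 1 table of FPKM values per sample, and the submitters' processing notes name HISAT2 2.0.5, featureCounts 1.5.0-p3 and hg38. Median-of-ratios factors of the deposited FPKM were 1.00736 in every sample, so scaling by them left the values unchanged. The deposited values were thus already on a common scale of that kind, and not scaled by the recovered reads alone. FPKM was analysed as log2(FPKM + 0.1). Genes averaging 1 FPKM or more (14462) entered a limma 3.58.1 fit in R 4.3.3 without a block, with Benjamini-Hochberg adjustment. Whole reads were recovered from FPKM and GENCODE release 29 exon lengths for 97.3% of the 58039 matched genes (95.8% of those above 0, within 0.02 reads), and gave 17229950 to 22009236 reads per sample. limma's voom was run on these as an alternative. The replicate numbers in the labels paired the samples: the deviations of same-numbered samples correlated at 0.381, 0.568 and 0.639, so blocked values are given. All tests across genes were tested on simulated data. Exact tests used scipy 1.17.1 under Python 3.11.15, and proteins translated from GENCODE were aligned with MAFFT 7.526.

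The members and lists were chosen with earlier results of these data known. Named were the members, PRPF19, overlapping genes and pseudogenes, the 5 genes most like each member, and in each list the 2 highest, the 2 with the largest difference and up to 4 that passed a test. Some genes that this rule or the marker lists name are not reported here. Alternatives were a pseudocount of 1, no filter, a mean of at least 5 FPKM, TPM, quantile normalization, the replicate block, voom, and leaving out samples.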

Additional observations from a re-analysis of the deposited data

How the results depend on the processing

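The count of genes at an FDR under 0.05 was 0 in the main limma fit and in 14 of 15 alternatives. It was 1029 in voom on recovered reads with the replicate block. There 6 genes of the 8 lists passed, SCN2A among them, against 0 otherwise. With the replicate block in limma the difference between siPrp19 and siNC was unchanged at -0.56 for ATP1B1 and -0.14 for ATP1B3, with smaller standard errors. Leaving out each sample in turn gave -0.76 to -0.33 for ATP1B1, -0.38 to 0.10 for ATP1B3 and -0.02 to 0.46 for ATP1B2. The sign changed in 0, 2 and 1 of 6 fits, in that order. Differences in level kept their direction with a pseudocount of 1, TPM, quantile normalization and the leave-outs, the alternatives run for them, from -1.09 to -0.80 for ATP1B3 minus ATP1B1, 6.28 to 6.67 for ATP1B1 minus ATP1B2 and 5.28 to 5.63 for ATP1B3 minus ATP1B2 with each sample left out. Their exact p was then 0.0625, the smallest that 5 samples allow. With both replicate 3 samples left out these differences were -1.18, 6.33 and 5.15, with an exact p of 0.125, the smallest for 4 samples. ATP1B2 rests on 24 to 58 reads per sample, which limits its precision.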

Other observations

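In the 8 gene lists, 40 genes were above 0 in some sample but averaged under 1 FPKM. The groups did not overlap for 2 of them in the higher direction and for 1 in the lower, beside 2.82% and 3.01% of the 23214 such genes in the files, and these 3 were named after their values were seen. SIK1, a salt-inducible kinase, measured 0.103, 0.186 and 0.0724 FPKM with siNC and 1.07, 0.335 and 0.214 FPKM with siPrp19. SCN1A, a pore-forming sodium channel subunit, measured 0.301, 0.164 and 0.143 FPKM with siNC and 1.20, 0.438 and 0.350 FPKM with siPrp19. SLC9A9, a sodium-hydrogen exchanger of endosomes, was the lower one, at 0.135, 0.181 and 0.148 FPKM with siNC and 0.129, 0.0588 and 0.108 FPKM with siPrp19, on 5 to 13 reads. SIK1 and SCN1A were highest in siPrp19 replicate 1, the sample with the lowest ATP1B1 and PRPF19 levels. A relation between these levels was not tested. Whole reads could not be recovered for SIK1 and SCN1A, and their depth is unknown.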
